A study of Mus musculus with 6 samples.

Results

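Potassium channel genes were followed across the cell classes, neuron types and sexes of the mouse preoptic region. The set held every gene symbol of the deposited table that starts with Kcn, without those ending in os or as (antisense transcripts), which were 4 of 99. The 95 members, of 27998 genes in the table, covered 94 genes for channel subunits and channel-associated proteins and Kcnq1ot1, a noncoding RNA read antisense from within Kcnq1. At least 1 UMI (unique molecular identifier, which stands for 1 captured RNA molecule) was counted for 94 members, 74 members had at least 100 UMIs, 20 had 1 to 99, and Kcnk16 had 0. Together they held 358725 UMIs, 0.166% of the total in the cells kept, and 57882 of these were Kcnq1ot1.

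The study profiled single cells of the preoptic region, a part of the hypothalamus with roles in parental and sexual behaviour, sleep and body temperature. Each library was a pool of 3 mice, 60 to 70 days old, that had been housed singly for 3 days, and there were 3 female and 3 male libraries. Tissue was dissociated with protease, live cells were sorted, and RNA was captured in droplets (10x Chromium), which reads transcripts from their 3′ end. The labels name no strain, genotype or treatment that differs between the sexes, and the library is the replicate throughout.

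Potassium channels let potassium leave or enter the cell and so set the resting potential, end the action potential and shape firing. Voltage-gated subunits (Kcna to Kcnd, Kcnh, Kcnq) open on depolarisation, inward rectifiers (Kcnj) and tandem-pore channels (Kcnk) act near rest, and calcium-activated channels (Kcnma1, Kcnn) couple calcium to repolarisation, while Kcnab, Kcne, Kcnip and Kcnmb proteins assemble with them and change their gating. In glia, inward rectifiers take up the potassium that neurons release, and in vessel walls potassium channels set muscle tone.

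Of 31299 barcodes, 30824 with at least 500 genes and at most 20% mitochondrial UMIs were kept. The female libraries held 4630, 9749 and 410 cells with medians of 5905, 6757 and 2684 UMIs, and the male libraries 7264, 6809 and 1962 cells with medians of 5004.5, 5542 and 3628.5 UMIs. Female library 3 was thus the smallest and shallowest. Libraries shared 468 of 30351 distinct barcodes. Xist and Ddx3y fitted the labelled sex in all 6 libraries. Cells were put in classes by UMIs of fixed marker genes, none of which is a member: 12194 inhibitory and 1716 excitatory neurons, 607 astrocytes, 849 oligodendrocyte precursors, 420 newly formed and 5799 mature oligodendrocytes, 609 microglia, 328 endothelial and 363 smooth muscle cells could be tested. These names stand for cells like the class by its markers. Too few for a test were 20 pericytes, 34 macrophages, 32 fibroblasts and 6 ependymal cells. A further 5064 cells (16.4%) passed the marker lists of several classes, 3000 of them those of neurons and mature oligodendrocytes, and were left out as possible doublets. The gate for newly formed oligodendrocytes was the loosest, with 55.5% of its cells just at the required number of markers.

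Levels are given as CPM, UMIs per 1000000 UMIs summed over the cells of a class in a library. Because reads come from the 3′ end, levels are compared between cells for 1 gene and not between genes. Classes were compared by the edgeR quasi-likelihood test on these sums, each class against the mean of the other classes on the log2 scale with the library as block, and a gene was called at a Benjamini-Hochberg adjusted p under 0.05 over all genes tested.

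Promoter sequence is shown for 3 members that lead a class below and lie beside or inside another member with a different class pattern. Whether the position plays a part in the pattern was not tested. Kcnj10, high in astrocytes, and Kcnj9, high in neurons, lie head to head on chromosome 1 (GRCm38), with Kcnj9 on the minus strand at chr1:172320501-172329318, Kcnj10 on the plus strand at chr1:172341210-172374085, and 11891 bases between them. Kcnmb1, a smooth muscle gene, lies on the plus strand at chr11:33963013-33973641, inside the gene Kcnip1 (chr11:33629339-33993152, minus strand), whose level is higher in neurons and precursors. The 250 bases before the RefSeq start on GRCm38.p6, 5′ to 3′ on the strand of the gene, are printed with matches to CCAAT and GCCNNNGGC, on either strand, in capitals. The windows are chr1:172340960-172341209 for Kcnj10, chr1:172329323-172329572 (minus strand) for Kcnj9 and chr11:33962763-33963012 for Kcnmb1.
Kcnj10: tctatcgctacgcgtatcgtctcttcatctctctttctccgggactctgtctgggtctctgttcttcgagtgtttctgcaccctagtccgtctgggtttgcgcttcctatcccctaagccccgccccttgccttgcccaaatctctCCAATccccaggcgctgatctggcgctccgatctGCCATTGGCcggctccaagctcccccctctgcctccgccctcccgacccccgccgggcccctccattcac
Kcnj9: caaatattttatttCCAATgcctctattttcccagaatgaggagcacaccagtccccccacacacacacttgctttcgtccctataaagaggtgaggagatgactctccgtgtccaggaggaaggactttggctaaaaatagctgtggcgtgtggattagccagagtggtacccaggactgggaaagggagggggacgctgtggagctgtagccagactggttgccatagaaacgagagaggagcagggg
Kcnmb1: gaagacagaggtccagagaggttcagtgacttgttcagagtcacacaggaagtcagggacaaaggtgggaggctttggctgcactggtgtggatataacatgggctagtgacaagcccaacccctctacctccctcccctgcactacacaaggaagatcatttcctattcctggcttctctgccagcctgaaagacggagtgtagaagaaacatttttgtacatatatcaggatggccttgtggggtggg

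The Kcnj10 window had a GC content of 62.0% with 2 CCAAT matches and 1 GCCNNNGGC match, of which 1 pair overlapped. The Kcnj9 window had a GC content of 52.0% and 1 CCAAT match, and the Kcnmb1 window had a GC content of 50.8% and neither motif. Among all 32851 RefSeq promoter windows of this length, 33.8% held CCAAT and 13.7% held GCCNNNGGC, against 28.7% (27 of 94) and 16.0% (15 of 94) of the windows found for 69 members. The CArG box, searched by name, was in 1.47% of all windows and in 0 of the 94 member windows. These are descriptions of letters in a window. Across the members, the median gene span was 30830 bases against 17403 for all protein-coding genes, and 29 of the 95 shared exon bases with another gene. Nothing used here says whether counting used strand, so counts of such pairs (Kcnab3 with Kcnab3os, Kcnmb4 with its antisense genes, Kcnq1 with Kcnq1ot1, among others) cannot be told apart with certainty.

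Among the 9 tested classes, neurons and oligodendrocyte precursors had the highest summed levels. The summed level of the 94 channel members was 1600 ± 111 CPM (SD, n = 6) in inhibitory and 1594 ± 141 CPM (n = 5) in excitatory neurons. Oligodendrocyte precursors were as high, at 1640 ± 37.8 CPM (n = 6), followed by astrocytes with 1211 ± 144 (n = 6) and smooth muscle with 1095 ± 99.2 (n = 5). The values were 920 ± 164 CPM (n = 5) in newly formed and 890 ± 70.2 (n = 6) in mature oligodendrocytes, 340 ± 41.8 in microglia and 147 ± 22.8 in endothelial cells (n = 6 each). The first 3 classes lay within each other's spread, as did the last pair of oligodendrocyte classes, while endothelial cells were the lowest by more than the spread. In the 5-library classes, female library 3 had under 10 cells.

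The expression filter passed 41 members. The other 54, of which 33 had at least 100 UMIs, were too sparse in these classes for the test, and the filter favours genes that are high somewhere, so the counts below describe the 41 only. In inhibitory neurons 33 members were called higher and 2 lower, where 42.0% of the 10378 genes tested were higher and 33.0% lower (75.1% called in all). In excitatory neurons 32 were higher and 3 lower, against 39.3% and 33.6% of all genes (72.8% in all), and these 32 were higher in both neuron classes. The members' median log2 difference was 2.06 in inhibitory and 2.00 in excitatory neurons, beside 0.05 and 0.02 over all genes. The 8 members never called higher in a neuron class were each higher in a glial or vascular class. For these 8, and for the 32 higher in both neuron classes, the share over all genes is not given. Neither count is therefore read as a result about the members.

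Oligodendrocyte precursors had 25 members higher and 2 lower (29.0% and 21.9% of all genes, 50.8% in all), with a median of 0.89 against 0.01. In newly formed oligodendrocytes 19 were higher and 4 lower (24.8% and 20.7%, 45.6% in all), with medians of 0.70 and -0.03. Astrocytes had 13 higher and 10 lower (25.8% and 22.3% of all genes, 48.2% in all), a split that became 13 and 5 by DESeq2 and 19 and 8 without the filter. Mature oligodendrocytes turned the other way, with 6 higher and 24 lower (38.4% and 34.4%, 72.7% in all) and a median of -1.25 against -0.03. So did microglia with 1 higher and 15 lower (29.9% and 34.9%, 64.7% in all; 8 higher and 21 lower without the filter), endothelial cells with 1 and 21 (23.9% and 26.2%, 50.2% in all), and smooth muscle with 8 and 12 (22.1% and 21.3%, 43.3% in all). Their medians were -1.30, -2.09 and -1.21, against -0.24, -0.19 and -0.14 over all genes. Where another class held 0 UMIs of a gene, its difference from the mean of the classes could not be determined and it was not called, which touched 1 to 7 of the 41 members per class (1 in inhibitory neurons, 7 in microglia). Leaving out female library 3 gave counts within 1 call of these in each direction.

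For 16 of the 41 members, the lowest library of the highest class lay above all libraries of all other classes. The background share is 20% of the genes tested.

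**Figure D1:**
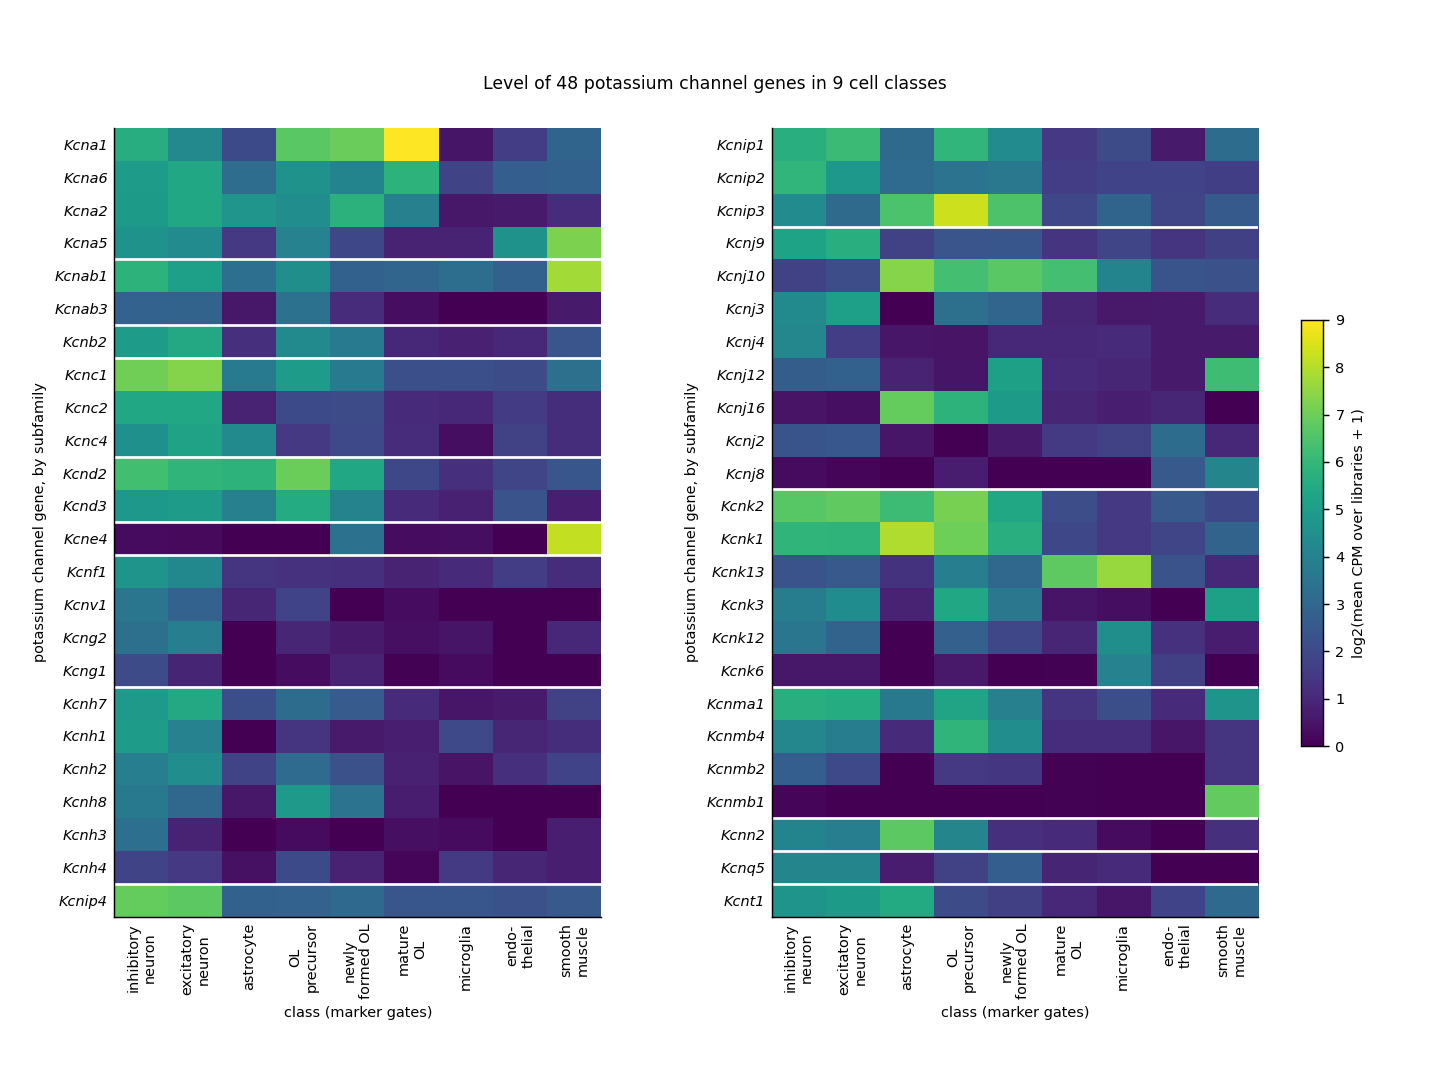
Mean level of 48 channel members named in the text, with at least 100 UMIs (rows), in 9 classes (columns), as log2(CPM + 1), with the colour bar giving the scale. The neuron columns are filled for most genes, while a few rows stand out in single glial or vascular classes, such as Kcna1 in mature oligodendrocytes and Kcne4 in smooth muscle.

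Among the inward rectifiers, Kcnj10, the main glial potassium uptake channel, was a gene of the astrocyte and oligodendrocyte classes. Its astrocyte levels were 141, 148 and 202 CPM in female libraries 1 to 3 and 149, 186 and 168 in male libraries 1 to 3 (166 ± 24.4, n = 6). Precursors held 65.7, 76.7 and 59.2 (female) and 85.5, 84.4 and 96.3 CPM (male), and mature oligodendrocytes 70.9, 86.9 and 64.7 and 81.6, 94.7 and 71.0 CPM. All 6 astrocyte libraries were above all precursor, newly formed (103 ± 24.0 CPM, n = 5) and mature libraries, and neurons were far below, at 2.46 ± 1.43 CPM in inhibitory cells. The log2 difference was 3.99 ± 0.19 (SE) in astrocytes and 3.33 ± 0.12 in mature oligodendrocytes (edgeR adjusted p = 3.44e-31 and 8.06e-40). In microglia, 5 libraries held 0 to 8.95 CPM and female library 3 held 75.7.

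Kcnj16, a subunit that pairs with Kcnj10, followed it only part of the way. Astrocytes held 134, 101 and 182 CPM in the female and 107, 101 and 63.8 in the male libraries (115 ± 39.9, n = 6), and precursors 55.4 ± 14.9. Newly formed oligodendrocytes held 29.0 ± 11 CPM (n = 5), but mature oligodendrocytes, where Kcnj10 stayed at 78.3 ± 11.4, held only 0.965 ± 0.483. Kcnj16 was called higher in astrocytes, precursors and newly formed oligodendrocytes (adjusted p = 1.39e-35, 7.12e-26 and 6.09e-14). Its log2 differences are not given because a class held 0 UMIs, which makes them depend on the fit's prior count.

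Kcnj12 and Kcnj8 were highest in vascular classes, and Kcnj12 was also found in newly formed oligodendrocytes. Kcnj12, a strong inward rectifier, held 65.6 and 71.2 CPM in the female and 40.9, 96.8 and 88.6 in the male smooth muscle libraries, and was higher there by 5.01 ± 0.33 (adjusted p = 4.66e-23). In newly formed oligodendrocytes it held 26.1 and 10.9 and 3.70, 49.3 and 77.2 CPM, a wide spread, and was higher by 3.13 ± 0.34 (adjusted p = 1.39e-12). Kcnj8, the pore of the ATP-sensitive channel of vessel walls, was too sparse for the test: it held 16.2 ± 6.67 CPM (n = 5) in smooth muscle and 4.65 in endothelial cells. In the 20 pericytes, pooled over libraries, it held 64 UMIs or 1505 CPM (exact Poisson 95% interval 1159 to 1922, counting error only). The sulfonylurea receptor gene Abcc9, whose product assembles with that pore, held 12 UMIs (282 CPM) in pericytes, 0.819 CPM pooled in smooth muscle and 0 UMIs in endothelial cells. Pericytes and smooth muscle could not be compared by a fit, since 1 library alone had at least 10 pericytes.

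Kcnj9 and Kcnj3, subunits of channels opened by G-protein-coupled receptors, were neuronal, as was Kcnj4. Kcnj9 held 35.9 ± 3.56 CPM (n = 6) in inhibitory and 49.2 ± 11.8 (n = 5) in excitatory neurons, and 2.30 in astrocytes. Its neighbour Kcnj10, whose window is printed above, thus had the reverse order between neurons and astrocytes. Kcnj4 held 16.8 ± 4.50 CPM in inhibitory and 2.08 in excitatory neurons, and did not pass the filter of the class comparison.

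Among the tandem-pore channels, Kcnk13 belonged to microglia and mature oligodendrocytes. Microglia held 180, 161 and 189 CPM in the female and 201, 143 and 283 in the male libraries (193 ± 48.9, n = 6). Mature oligodendrocytes held 113, 115 and 127 and 88.4, 95.7 and 113 CPM (109 ± 14.1), and no library of the 2 classes overlapped. Precursors held 13.5 ± 8.11 and inhibitory neurons 3.95 ± 0.921 CPM. Kcnk13 was the 1 member called higher in microglia, by 5.78 ± 0.15 (adjusted p = 2.40e-48), and in mature oligodendrocytes the difference was 4.63 ± 0.11. Relatives outside the filter were also highest in microglia: Kcnk12 at 21.5 ± 8.39 CPM (10.7 ± 0.855 in inhibitory neurons) and Kcnk6 at 15 ± 9.84 CPM (2.23 in endothelial cells and 0 in female microglia library 3).

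Kcnk1, a weak inward rectifier of the tandem-pore family, was highest in astrocytes. It held 166, 201 and 283 CPM in the female and 311, 238 and 271 in the male astrocyte libraries, against 129 ± 26.6 in precursors and 58.2 ± 4.35 in inhibitory neurons. The log2 difference was 3.88 ± 0.14 (adjusted p = 3.30e-38). Kcnk2, opened by stretch and lipids, was instead shared by several classes, with 142 ± 15.7 CPM in precursors and 111 ± 13.9 in excitatory neurons (n = 5). It was higher in precursors by 2.63 ± 0.15, in excitatory neurons by 2.29 ± 0.13 and in inhibitory neurons by 2.20 ± 0.11. Kcnk2 was also called higher in astrocytes (2.00 ± 0.23) and newly formed oligodendrocytes (1.01 ± 0.23). The difference of inhibitory minus excitatory neurons (-0.09 ± 0.09) was not called. Kcnk3, a pH-sensitive channel, held 39.9 ± 13.7 CPM in precursors and 33.4 ± 20.3 in smooth muscle, was called in both, and held 0 UMIs in endothelial cells.

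The voltage-gated Kcna1, a delayed rectifier known from axons, was the member with the most UMIs after Kcnq1ot1 and was highest in mature oligodendrocytes. Their levels were 565, 374 and 614 CPM in the female and 610, 475 and 531 in the male libraries (528 ± 91.6, n = 6). Newly formed oligodendrocytes held 78.2 and 139 (female libraries 1 and 2) and 155, 152 and 90.1 CPM (male), and precursors 103 ± 31.3. The lowest mature library lay above every library of every other class, with inhibitory neurons at 48.1 ± 7.10 and excitatory neurons at 18.0 ± 4.87 CPM. The difference was 5.91 ± 0.09 (adjusted p = 2.34e-64). Kcna6, of the same chromosome 6 cluster (61944 bases from Kcna1), held 55.2 ± 10.8 CPM in mature oligodendrocytes and was higher by 2.64 ± 0.11. Kcna5, 104984 bases away from Kcna1 on its other side, was by contrast lower in mature oligodendrocytes by 3.03 ± 0.50 and highest in smooth muscle, with 116 and 89.7 CPM in the female and 150, 182 and 213 in the male libraries (150 ± 49.3, n = 5). It was the 1 member called higher in endothelial cells (1.42 ± 0.48, adjusted p = 0.00996), at 23.5 ± 14.4 CPM against 22.9 ± 6.84 in inhibitory neurons.

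Kcnip3 and Kcnd2 led in oligodendrocyte precursors. Kcnip3, a calcium-binding protein that assembles with Kcnd channels, held 269, 333 and 345 CPM in the female and 253, 361 and 342 in the male precursor libraries (317 ± 44.8, n = 6). Astrocytes (87.6 ± 30.9) and newly formed oligodendrocytes (88.6 ± 29.5, n = 5) lay below all of these, and mature oligodendrocytes held 2.77 ± 1.42 CPM. The difference in precursors was 4.39 ± 0.12 (adjusted p = 3.86e-47). Kcnd2, the pore of a fast transient current, held 133, 115 and 118 and 136, 132 and 109 CPM in precursors, above all libraries of inhibitory neurons (75.6 ± 9.48), with a difference of 2.82 ± 0.15. Dpp6, which also assembles with Kcnd channels, held 220 CPM in precursors and 193 in inhibitory neurons, but 6.90 in mature oligodendrocytes. Kcnh8, a slow voltage-gated channel, held 27.9 ± 7.27 CPM in precursors against 11.5 ± 2.34 in inhibitory neurons, and Kcnmb4, a subunit of the large-conductance calcium-activated channel, 57.5 ± 29.6 against 20.4 in newly formed oligodendrocytes. Both were called higher in precursors.

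Calcium-activated channels split between astrocytes, vessel walls and neurons. Kcnn2, a small-conductance channel, held 106, 85.9 and 122 CPM in the female and 84.8, 150 and 87.7 in the male astrocyte libraries (106 ± 26.0, n = 6), against 16.1 in precursors and 15.6 ± 3.34 in inhibitory neurons, and no astrocyte library overlapped with another class. Sodium-activated Kcnt1 was higher in astrocytes by 2.97 ± 0.32, at 44.0 ± 28.7 CPM. Kcne1l, a small subunit that modifies voltage-gated channels, held 38.3 ± 18.6 CPM in astrocytes and 3.17 in precursors and was called in both.

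Smooth muscle was called higher than the mean of the other tested classes in the auxiliary subunits Kcnmb1, Kcne4 and Kcnab1. Kcnmb1, which raises the calcium sensitivity of the large-conductance channel, held 75.7 and 108 CPM in the female and 133, 138 and 106 in the male libraries (112 ± 24.8, n = 5), and 143 of its 218 UMIs in all kept cells. Kcne4, a single-pass subunit, held 247 and 213 and 262, 238 and 478 CPM (288 ± 108). Both were called higher (edgeR adjusted p = 5.49e-30 and 1.13e-41), while Kcnmb1 had an adjusted p of 0.0505 by DESeq2. Kcnma1, the pore that Kcnmb1 assembles with, was present at 24.5 ± 16.9 CPM, higher by 1.46 ± 0.33, and at 49.8 ± 7.48 CPM in inhibitory neurons. Kcnab1, a cytoplasmic subunit of Kcna channels such as Kcna5, held 252 and 260 and 221, 185 and 160 CPM (216 ± 43.1) against 55.5 ± 11 in inhibitory neurons, a difference of 4.20 ± 0.15. In the 20 pericytes Kcne4 held 25 UMIs (588 CPM, exact Poisson 95% interval 381 to 868) and Kcnmb1 held 4. The 32 fibroblasts held 19 UMIs of Kcne4 (150 CPM, 90.3 to 234) and 14 of Kcnk2 (111 CPM, 60.4 to 185).

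**Figure D2:**
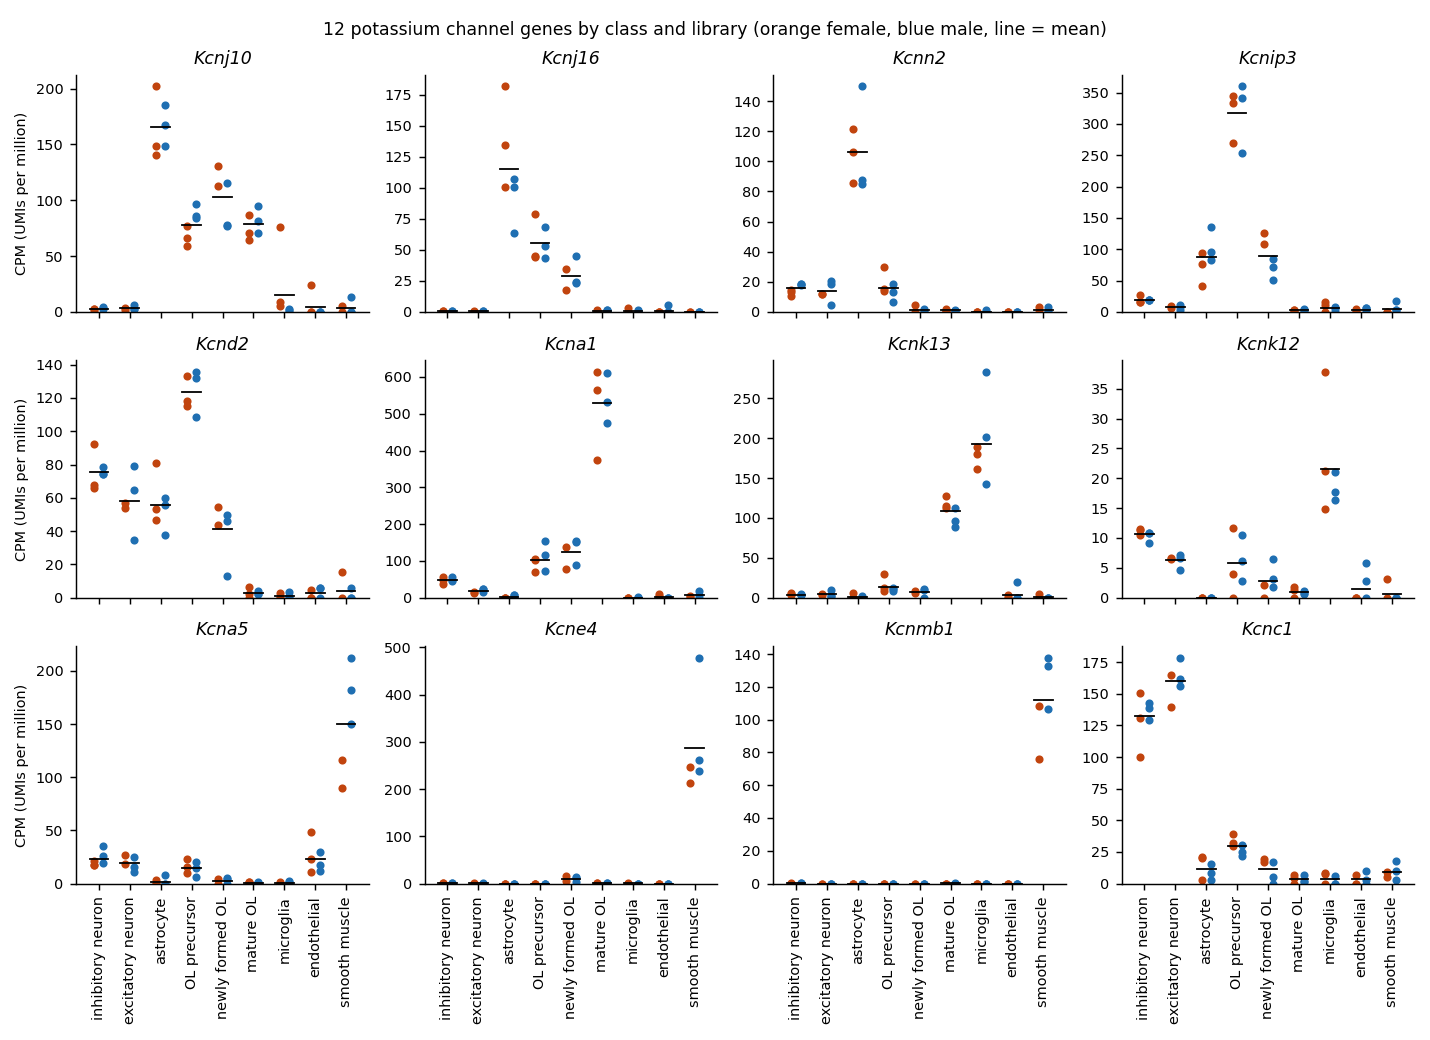
Level in CPM of 12 members in each library (points, female and male coloured apart) by class, with the bar at the mean of the libraries. The points of the leading class stand clear of the others for Kcna1 (374 to 614 CPM in mature oligodendrocytes) and Kcnip3 (253 to 361 CPM in precursors).

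Of 29 partner genes (subunits, scaffolds, pumps and cotransporters), 23 were tested. In inhibitory neurons 18 were higher and 4 lower (42.0% and 33.0% of all genes) and in excitatory neurons 17 and 3 (39.3% and 33.6%). Precursors had 7 and 9 (29.0% and 21.9%), astrocytes 6 and 10 (25.8% and 22.3%), newly formed oligodendrocytes 7 and 10 (24.8% and 20.7%) and mature oligodendrocytes 9 and 13 (38.4% and 34.4%), so the higher shares of these 4 classes were near those of all genes. The lower shares of the same 4 classes were above those of all genes. Microglia had 3 higher and 15 lower (29.9% and 34.9%), endothelial cells 2 and 16 (23.9% and 26.2%), and smooth muscle 6 and 11 (22.1% and 21.3%). Lgi3 and Cntn2, proteins of the axon and myelin contact where Kcna1 channels cluster, held 508 and 135 CPM in mature oligodendrocytes, the class where Kcna1 was highest. They were among the 9 partners called higher there, while Cntnap2 (-1.26 ± 0.20), Lgi1 (-2.22 ± 0.26) and Dlg4 (-1.08 ± 0.19) were among the 13 called lower.

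Free RNA from broken neurons could add neuronal members to other classes. As a reference, 5 neuronal genes that are no markers (Ndrg4, Uchl1, Meg3, Nsg2 and Gap43) gave a guide level for free neuronal RNA in each class. Their summed level was not even, from 393 CPM in mature oligodendrocytes to 1905 in precursors. Whether the cells' own expression adds to it was not tested, so the reference is not a measure of free RNA alone. Each multiple below is a member's level in a class relative to neurons, divided by the same ratio for the 5 genes. In mature oligodendrocytes this multiple was 1.02 for Kcnc1 and 1.58 for Kcnip4. For Kcnc1 it was 0.956 in microglia, 0.500 in endothelial cells and 1.13 in smooth muscle. The source of these Kcnc1 levels was not tested. In precursors the multiple was 12.1 for Kcnd2 and 9.02 for Kcnk2, and in astrocytes 12.3 and 12.5. For Kcna6 in mature oligodendrocytes it was 51.4.

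Along the oligodendrocyte lineage the set changed at both steps. From precursors to newly formed oligodendrocytes 3 of the 41 members were higher and 17 lower (11.7% and 15.2% of all genes), with a median of -0.76 beside -0.07 over all genes. The summed level of the 5 neuronal reference genes was lower as well along these classes, at 1905 CPM in precursors, 953 in newly formed and 393 in mature oligodendrocytes, and its part in the members' medians at both steps was not tested. Kcna2, a partner of Kcna1 in mixed channels, was higher by 1.55 ± 0.25, at 54.3 ± 27.9 CPM (n = 5), and Kcnj12 by 5.44 ± 0.65, at 33.4 ± 30.1 CPM. Kcne4 was also called, at 9.35 ± 5.30 CPM against 0 UMIs in precursors. The lower members took in Kcnip3 (-1.76 ± 0.14), Kcnk2 (-1.44 ± 0.19), Kcnd2 (-1.41 ± 0.19), Kcnk1 (-1.21 ± 0.18) and Kcnn2 (-2.86 ± 0.61, or -7.92 with stricter gates).

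From newly formed to mature oligodendrocytes 4 were higher and 22 lower (28.9% and 24.6% of all genes), with a median of -1.39 beside 0.08. The higher ones were Kcnk13 (4.18 ± 0.23), Kcna1 (2.55 ± 0.11), Kcna6 (2.30 ± 0.20) and Kcnab1 (0.95 ± 0.37), and the last was no longer called by DESeq2, without the filter or with stricter gates, nor without female library 2 (0.88) or male library 2 (0.88). Kcnip3 (-4.17 ± 0.22), Kcnj12 (-4.08 ± 0.37), Kcnj16 (-3.88 ± 0.34), Kcnk3 (-3.53 ± 0.50) and Kcnk1 (-3.22 ± 0.24) had the largest decreases among members with UMIs in all 3 of these classes. Kcna2 fell by 1.30 on the log2 scale (SE 0.19), so it peaked in the newly formed class while Kcna1 peaked in the mature one. Kcnj10 was not called at either step. The median newly formed cell carried 3 markers of its own class and 3 of the mature class. With stricter gates, which kept 246 newly formed cells, the place of the largest decrease moved: Kcnip3 was at -4.67 from precursors to newly formed and -1.20 from newly formed to mature cells, and Kcnk3 at -4.26 and -0.84, where the second step was not called. Kcnj12 was at -1.87 and Kcnk13 at 5.22 at the second step. At which of the 2 steps these members change thus depends on the gate.

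**Figure D3:**
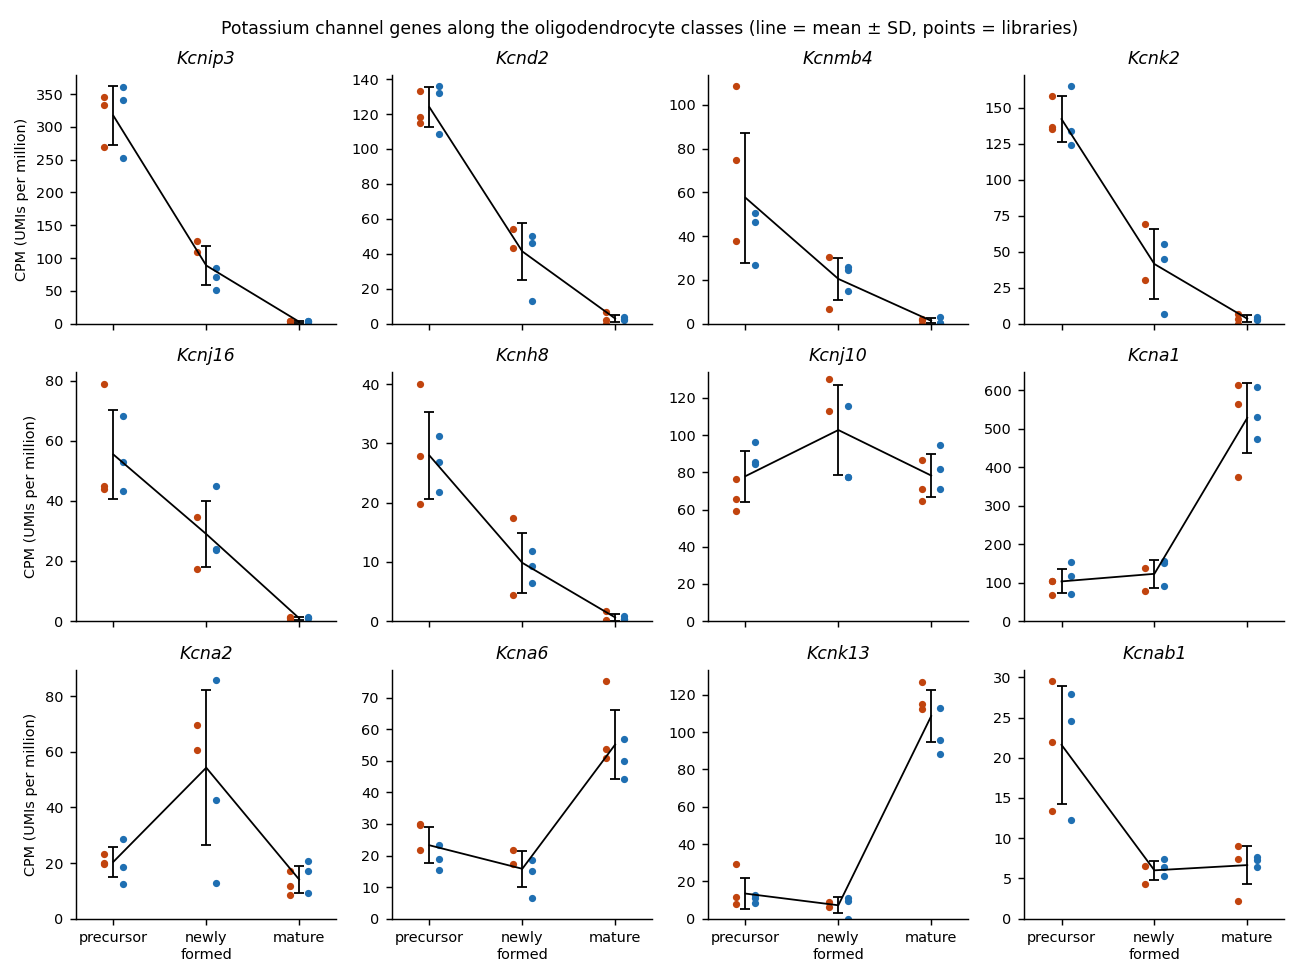
Mean level in CPM with SD over libraries (error bars) of 12 members in precursors, newly formed and mature oligodendrocytes. Kcnip3 declines from 317 to 88.6 and 2.77 CPM, while Kcna1 goes from 103 and 123 to 528 CPM.

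Inhibitory and excitatory neurons shared nearly all members and differed in the level of some. Of the 41 members 7 were higher in inhibitory neurons and 8 in excitatory neurons (9.21% and 7.94% of all genes), with medians of 0.02 for members and for all genes. Kcna1 was higher in inhibitory neurons by 1.49 ± 0.13 (edgeR adjusted p = 1.34e-15). Its level varied by type within both classes. Inhibitory Gal, Nts and Crh neurons held 8.23 ± 4.50, 32.1 ± 11.3 and 40.0 ± 9.58 CPM, and excitatory Tbr1 neurons 31.8 ± 11.1 CPM (n = 5 each). Each of these inhibitory types lay below the mean of inhibitory neurons given above, and Tbr1 neurons above that of excitatory neurons. Kcnip2, a Kcnd partner, held 53.9, 47.7 and 71.3 CPM in the female and 63.1, 57.9 and 66.7 in the male inhibitory libraries, against 22.1 and 29.2 and 26.2, 29.9 and 27.7 in excitatory neurons. The groups did not overlap, and the difference was 1.05 ± 0.11. Kcnip3 (0.99 ± 0.17), Kcnh1 (0.90 ± 0.12), Kcnab1 (0.88 ± 0.10), Kcnh8 (0.55 ± 0.19) and Kcnd2 (0.28 ± 0.10) were also higher in inhibitory neurons.

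Higher in excitatory neurons were Kcnj3 (-0.59 ± 0.11 as inhibitory minus excitatory), Kcnc4 (-0.57 ± 0.12), Kcnip1 (-0.53 ± 0.09), Kcnh7 (-0.52 ± 0.11), Kcna2 (-0.44 ± 0.11), Kcnk3 (-0.38 ± 0.13), Kcna6 (-0.32 ± 0.10) and Kcnb2 (-0.30 ± 0.10). DESeq2 left 5 higher and 1 lower in inhibitory neurons, without Kcnc4, Kcnip1, Kcnh7 and Kcna2 among them, without the filter there were 16 and 11, and Kcna2 was not called without male library 1 (-0.30). Kcnc1, which lets neurons fire fast, held 132 ± 17.6 CPM in inhibitory and 160 ± 14.1 in excitatory neurons, with no call. Kcnip4 held 115 ± 15.6 and 105 ± 11.7 CPM.

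Members with large differences between neurons and the other classes included the voltage-gated Kcnc1, Kcnc2 and Kcnh7 and the auxiliary Kcnip4. Kcnc1 held 151, 131 and 100 CPM in the female and 139, 143 and 129 in the male inhibitory libraries, and was higher by 3.27 ± 0.11 there and by 3.43 ± 0.12 in excitatory neurons (edgeR adjusted p = 3.63e-41 and 1.56e-39). Kcnc2 (3.38 ± 0.15 and 3.42 ± 0.18), Kcnip4 (3.33 ± 0.11 and 3.18 ± 0.13) and Kcnh7 (3.00 ± 0.17 and 3.59 ± 0.19) were similar in size. Kcnh1 and Kcnj3, which held 0 UMIs in astrocytes, were called higher in both neuron classes, at 30.3 and 15.1 CPM and at 18.6 and 32.8 CPM in inhibitory and excitatory neurons.

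The members called lower in neurons were glial ones. Kcnj10 was lower by 2.82 ± 0.65 in inhibitory and 2.71 ± 0.64 in excitatory neurons, and Kcnk13 by 1.43 ± 0.45 and 1.46 ± 0.47. Each of these calls rests on the 1 UMI that keeps another class above 0: without female library 3 (-2.15 and -2.05 for Kcnj10) endothelial cells held 0 UMIs of Kcnj10, and without female library 1 (-0.66 and -0.88 for Kcnk13) smooth muscle held 0 UMIs of Kcnk13, and the difference could not be determined. Kcnip3 was lower in excitatory neurons by 1.34 ± 0.29.

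Members were also called lower in the other classes. Microglia were lowest in Kcna1, Kcna2 and Kcnc4, each of which had UMIs in 1 microglia library only, so that the sizes are not well determined. Kcna1 was at -4.57 ± 0.72 with 2 UMIs, both in male library 2, and at -9.37 without it. Kcna2 (-3.59 ± 0.90) and Kcnc4 (-3.13 ± 1.15) held 2 and 1 UMIs in female library 2, at -7.41 and -5.67 and no longer called without it. Mature oligodendrocytes were lowest in Kcna5, Kcnma1 (-2.62 ± 0.41, not called without female library 2, -2.31) and Kcnk1 (-2.57 ± 0.30). Smooth muscle was called lower in Kcnk13 (-3.42 ± 1.01) and Kcnd3 (-3.32 ± 0.98), each with 1 UMI there, at -7.89 without female library 1 and -7.81 without male library 1. Precursors were called lower in Kcnip4 (-1.16 ± 0.36, not called without female library 2, -0.77). They were also lower in Kcnj12, at -3.63 with stricter gates and -1.87 without female library 2, where it was not called. Newly formed oligodendrocytes were lowest in Kcnab1 (-2.07 ± 0.33). Endothelial cells held 0 UMIs of Kcnk3 and Kcnn2.

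Neurons were then typed by UMIs of 1 or a few genes, and each type was compared with the other neurons of its transmitter. Of 17 types 15 could be tested, and 881 of the 5439 typed neurons counted in several types. Striatal-like neurons, which carry Ppp1r1b with Adora2a (619 cells) or Drd1 (839 cells), differed most. In the Adora2a type 21 of 51 members were higher and 17 lower (24.8% and 26.6% of all genes), or 18 and 24 without the filter, and in the Drd1 type 26 of 55 were higher and 17 lower (26.0% and 27.2%).

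Kcnj2 and Kcnj4, strong inward rectifiers, and Kcnh3 and Kcnh4, channels of the ether-a-go-go group, were higher in both striatal-like types. Kcnj4 held 54.9 and 58.3 CPM in the female and 69.2, 79.5 and 70.6 in the male libraries of the Drd1 type, against 9.24 to 16.7 in the other inhibitory neurons, a difference of 2.31 ± 0.11 (edgeR adjusted p = 6.44e-22). In the Adora2a type it was higher by 2.20 ± 0.12. Kcnj2 differed by 2.70 ± 0.21 in the Drd1 type and 2.26 ± 0.26 in the Adora2a type, Kcnh3 by 2.48 ± 0.19 and 2.09 ± 0.21, and Kcnh4 by 2.14 ± 0.27 and 2.11 ± 0.33. Kcnip2 held 164 ± 40.5 CPM in the Drd1 type (n = 5) and 190 ± 16.7 in the Adora2a type, with 52.4 ± 9.02 and 50.9 ± 6.70 in the others. Lower were Kcnh8, with 1 UMI in the Adora2a type and 10 in the Drd1 type, Kcnc2 in the Adora2a type (2.18 ± 1.64 against 42.0 ± 6.28 CPM), and Kcnmb2 in the Drd1 type (0.407 ± 0.390 against 5.77 ± 1.52 CPM). Ppp1r1b with either receptor marks projection neurons of the striatum, and whether these cells came from outside the preoptic region was not tested. They were part of the comparison group of every other inhibitory type.

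In Pvalb neurons (78 cells in 4 libraries with at least 10) 13 of 66 members were higher and 4 lower (4.16% and 6.79% of all genes), or 11 and 0 by DESeq2. Kcnc1, which lets neurons fire fast, was among the higher ones. It held 417, 263, 283 and 452 CPM in female libraries 1 and 2 and male libraries 1 and 2, all above the 100 to 149 CPM of the other inhibitory neurons (1.22 ± 0.13). Kcnmb2 was higher by 3.20 ± 0.43 and Kcnab3 by 3.19 ± 0.40. Kcnab3 held 29.8, 40.8, 50.4 and 101 CPM against 4.16 to 6.97, which do not overlap. Kcnh2 was higher by 1.47 ± 0.39 and was not called without female library 2 (1.31). Kcnq5 (-2.14 ± 0.70) and Kcnab1 (-1.55 ± 0.34) were lower, but neither by DESeq2, and Kcnq5 not without female library 1 (-1.85), male library 1 (-2.27) or male library 2 (-1.72). Without male library 2, Kcnab1 was at -2.35. With the cells that carry a Ppp1r1b UMI left out of the others, neither was called (-1.20 and -0.71).

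The Lhx6 and Lhx8 neurons (1413 cells) and the Sst neurons (306 cells) also had Kcnmb2 and Kcnab3 among their higher members. In the Lhx6 and Lhx8 type 19 of 52 members were higher and 18 lower (21.8% and 21%, 42.8% in all), with Kcnmb4 (1.20 ± 0.10), Kcnab3 (1.14 ± 0.18), Kcnc2 (0.92 ± 0.07) and Kcnmb2 (0.89 ± 0.19) highest and Kcnh3 (-4.02 ± 0.36) and Kcnj4 (-3.14 ± 0.21) lowest. With the Ppp1r1b cells left out of the others, Kcnj4 was at -1.52, Kcnc2 at 0.58 and Kcnmb2 at 0.50. In Sst neurons 10 of 67 were higher and 14 lower (7.67% and 8%), or 9 and 8 by DESeq2. Kcnip1 held 134, 111, 97.8 and 150 CPM there against 40.0 to 55.1 in the others, a difference of 1.59 ± 0.10, and Kcnmb2 (1.85 ± 0.31), Kcnab3 (1.31 ± 0.31) and Kcnmb4 (1.12 ± 0.18) followed. Kcng1, with 1 UMI in Sst neurons, was lower (-3.42 ± 0.98), though not by DESeq2 nor without male library 1 (-2.99) or male library 2 (-2.98). It was at -8.26 without female library 2, which held that UMI, and at -8.40 with stricter gates, so the size is not well determined. Kcnq5 was lower by 2.26 ± 0.35 (-1.34 with the Ppp1r1b cells left out, -3.69 with stricter gates).

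Most peptide types of the inhibitory neurons had fewer members higher than lower. The clearest was Avp (334 cells), with 5 of 49 higher and 30 lower (21.5% and 23.9%), and a median of -1.38 against -0.05 over all genes. Kcnh8 held 84.1 and 74.4 CPM in the female and 81.7, 94.2 and 52.3 in the male Avp libraries, against 8.40 to 14 in the others (3.42 ± 0.18). Kcnc2 was higher as well (1.54 ± 0.14), at 92.7 and 97.3 and 88.8, 70.7 and 52.3 CPM against 32.7 to 53.2, where only male library 3 fell inside the range of the others. The calls of Kcnj9 (0.54 ± 0.17) and Kcnma1 (0.41 ± 0.15) did not hold by DESeq2, without the filter, or without female library 2 (0.52 and 0.31), and Kcnj9 not without female library 1 (0.43) or with the Ppp1r1b cells left out of the others (0.27), nor Kcnma1 without male library 2 (0.34). Kcnh3 held 0 UMIs in Avp neurons and 592 in the others, at least 6.04-fold lower at a floor of 3 UMIs over the group, and Kcnj4 held 2 UMIs against 1523.

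Gal neurons (492 cells) had 2 of 52 higher and 30 lower (14.6% and 14.9%), median -0.47. Kcnip1 was higher by 0.91 ± 0.10, and Kcnj12 by 0.80 ± 0.27 but not by DESeq2 nor without female library 1 (0.84), female library 2 (0.72) or male library 2 (0.74), while Kcnmb2 held 2 UMIs and Kcnh3 held 3. Vip neurons (112 cells) had 3 of 66 higher and 19 lower (5.53% and 6.23%; 3 and 4 by DESeq2), median -0.92. Kcnc1 held 218, 176, 247 and 205 CPM there against 100 to 150, higher by 0.69 ± 0.15. Kcnmb2 (2.05 ± 0.52) and Kcnn2 (1.11 ± 0.37) were higher, Kcnmb2 not without female library 2 (1.96) and Kcnn2 not without female library 1 (0.97), female library 2 (1.13) or male library 1 (1.18). Kcnv1 and Kcng2, silent subunits of Kcnb channels, held 0 UMIs in Vip neurons, at least 3.41-fold and 2.56-fold lower than the others. Those calls did not hold by DESeq2, nor without female library 2 for Kcnv1, nor without female library 1, female library 2 or male library 1 for Kcng2.

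Nts neurons (603 cells) had 2 of 54 higher and 11 lower (10.8% and 7.26%), with Kcnip1 higher (0.66 ± 0.11) and Kcnmb2 and Kcnab3 lower (-2.71 ± 0.48 and -1.75 ± 0.38). Th neurons (181 cells) had 3 of 66 higher and 18 lower (5.51% and 6.81%; 0 and 7 by DESeq2), with Kcnj4 lower by 1.72 ± 0.39, but by 0.08 with the Ppp1r1b cells left out, where the call was lost. Crh neurons (326 cells) had 3 of 50 in each direction (2.97% and 3.11%; 5 and 3 without the filter), near the background, with Kcnip4 higher by 0.61 ± 0.09, at 152 and 184 and 174, 135 and 248 CPM against 100 to 145.

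Among excitatory types, Trh neurons (205 cells) had 0 of 42 members higher and 10 lower (5.95% and 5.06%), with Kcnh7 at 17.9, 14.4, 11.4 and 17.2 CPM against 28.5 to 62.9 in the others (-1.70 ± 0.24) and Kcna1 lower by 1.81 ± 0.42, the latter not by DESeq2. Tbr1 neurons (427 cells) had 9 of 37 higher and 3 lower (4.73% and 4.63%; 3 and 0 by DESeq2), among them Kcna1 (1.18 ± 0.23, not called with stricter gates at 0.68). Tcf7l2 neurons (166 cells) had 3 of 40 higher and 1 lower (3.79% and 3.45%; 1 and 0 by DESeq2, 2 and 2 without the filter), led by Kcnf1 (1.43 ± 0.26). In Nos1 neurons (206 cells) 0 of 41 members were called by edgeR, where 0.644% of all genes were higher and 0.456% lower, and 0 by DESeq2. At an unadjusted p under 0.05 there were 9, beside 11% of all genes.

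With cells that carry a Ppp1r1b UMI left out of the comparison group, an alternative chosen after seeing the data, the split was 12 higher and 0 lower of 63 members in Pvalb (3.83% and 5.93% of all genes), 18 and 8 of 52 in Lhx6 and Lhx8 (15.6% and 15.4%) and 11 and 9 of 64 in Sst neurons (6.99% and 5.75%). It was 3 and 22 of 50 in Gal (12.7% and 11.9%), 3 and 12 of 62 in Vip (5.65% and 5.59%) and 2 and 29 of 44 in Avp neurons (18.1% and 29.6%). Nts neurons had 13 and 16 of 51 (14.3% and 11.8%), Crh 11 and 5 of 46 (7.43% and 7%) and Th 1 and 9 of 63 (4.26% and 4.88%). Counts in 1 direction or both moved by over 1.5 times in each of these types but Gal, and in Nts neurons the members higher went from below the share of all genes to above it.

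**Figure D4:**
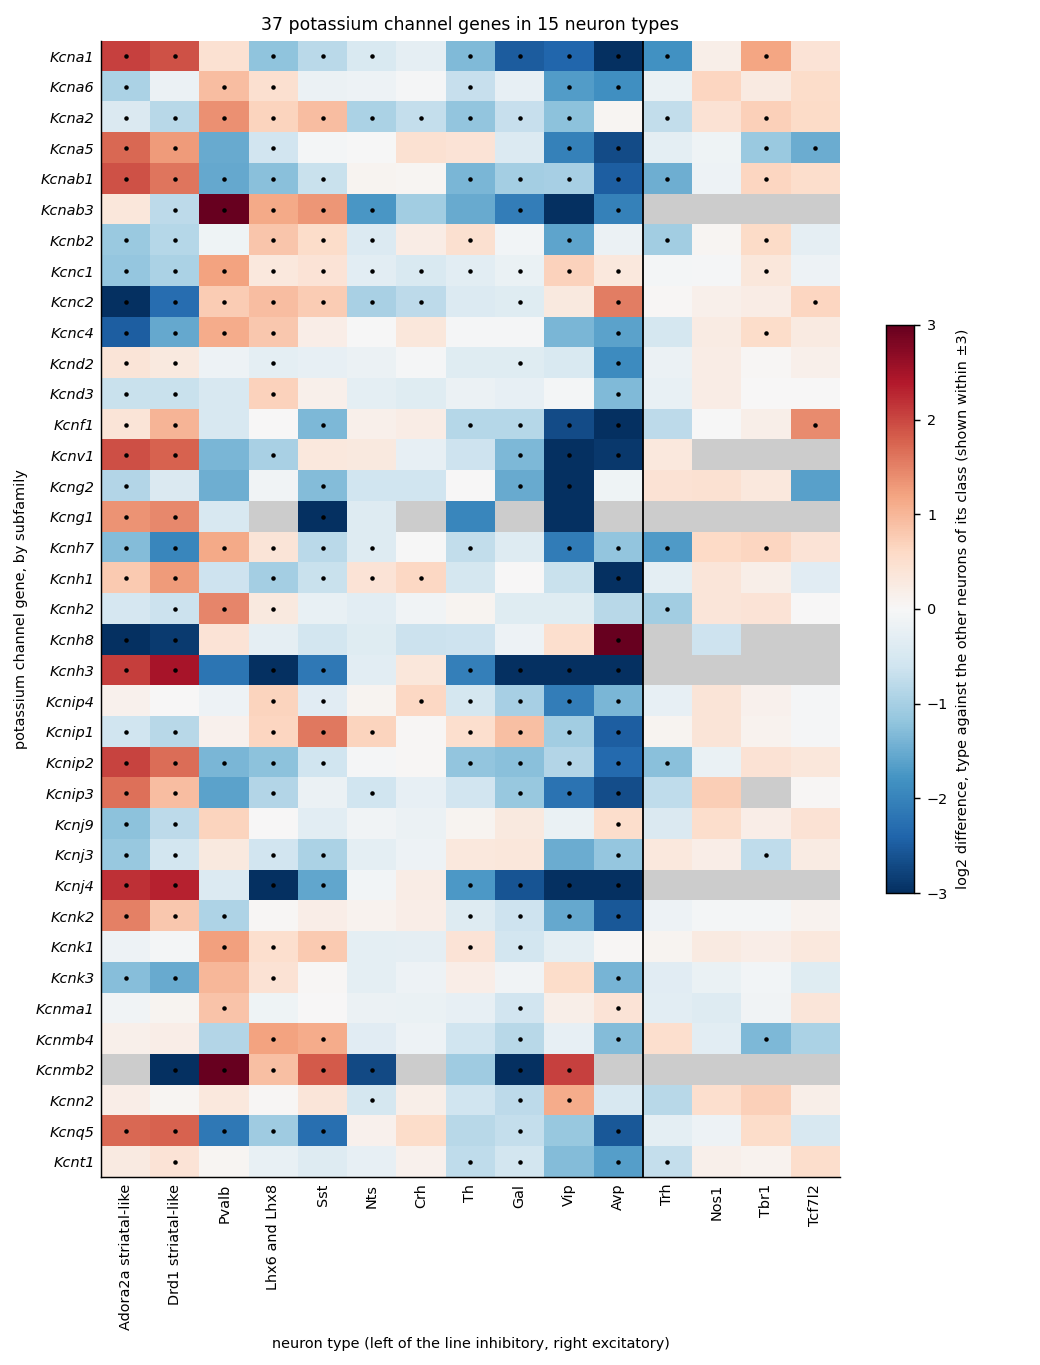
Log2 difference of each neuron type (columns) from the other neurons of its transmitter for 37 members named in the text and called in at least 3 types, chosen after values were seen, with colour shown within 3 units either way, a dot where called and grey where not tested. The 2 striatal-like columns and the Vip and Avp columns hold many of the strong colours.

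Female and male libraries were compared within classes with at least 20 cells in each library. By edgeR, 0 members were called in inhibitory neurons (68 tested), precursors (24), mature oligodendrocytes (18), astrocytes (9), endothelial cells (1) and all kept cells (76), where 0.0491%, 0.0522%, 0.0573%, 0.0585%, 0.0614% and 0.0434% of all genes were called. DESeq2 called 0 in each as well. At an unadjusted p under 0.05, edgeR gave 14 of 68 in inhibitory neurons (1173 of 14270 genes, 8.22%), 1 in precursors, 1 in all kept cells and 0 in the others, and DESeq2 gave 1 of 68 in inhibitory neurons.

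In inhibitory neurons 51 of 68 members were lower in female libraries, with a median of -0.17 (female minus male, log2) beside -0.02 over all genes. The summed level of the channel members was 1529, 1515 and 1478 CPM in the female and 1707, 1750 and 1618 CPM in the male libraries, which did not overlap, and no test was made of this sum. In excitatory neurons it was 1442 and 1515 CPM in female libraries 1 and 2 and 1703, 1779 and 1531 CPM in the male libraries. The smallest p belonged to Kcnf1, a silent subunit, with -0.43 ± 0.11 (edgeR adjusted p = 0.452), then Kcnj2 (-0.84 ± 0.23) and Kcnt1 (-0.46 ± 0.13). Other measures of the same cells by library were as follows. Avp neurons made up 3.56, 4.07 and 5.19% of female and 1.30, 1.60 and 2.55% of male inhibitory neurons, the median mitochondrial share was 3.39, 3.75 and 2.47% against 4.14, 4.38 and 4.38%, and the early response gene Fos held 590, 665 and 768 against 474, 379 and 537 CPM. These 3 measures did not overlap between the sexes. Median UMIs (8000, 7964 and 4774 against 5363, 6406 and 4195) and the share of cells with Ppp1r1b (30.2, 25.2 and 26.0% against 36.4, 26.8 and 29.8%) overlapped. In neurons of no type the summed level was 1452, 1480 and 1307 against 1614, 1654 and 1520 CPM. The part of these measures in the lower level was not tested.

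In astrocytes and mature oligodendrocytes the smallest p-values belonged to Kcnk1 (-0.47 ± 0.23) and Kcnk13 (0.23 ± 0.15), neither of which was called. Astrocyte sums were 1078, 1105 and 1457 CPM in female and 1138, 1188 and 1300 CPM in male libraries and overlapped, as did those of precursors (1587, 1622 and 1637 against 1696, 1668 and 1632 CPM).

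**Figure D5:**
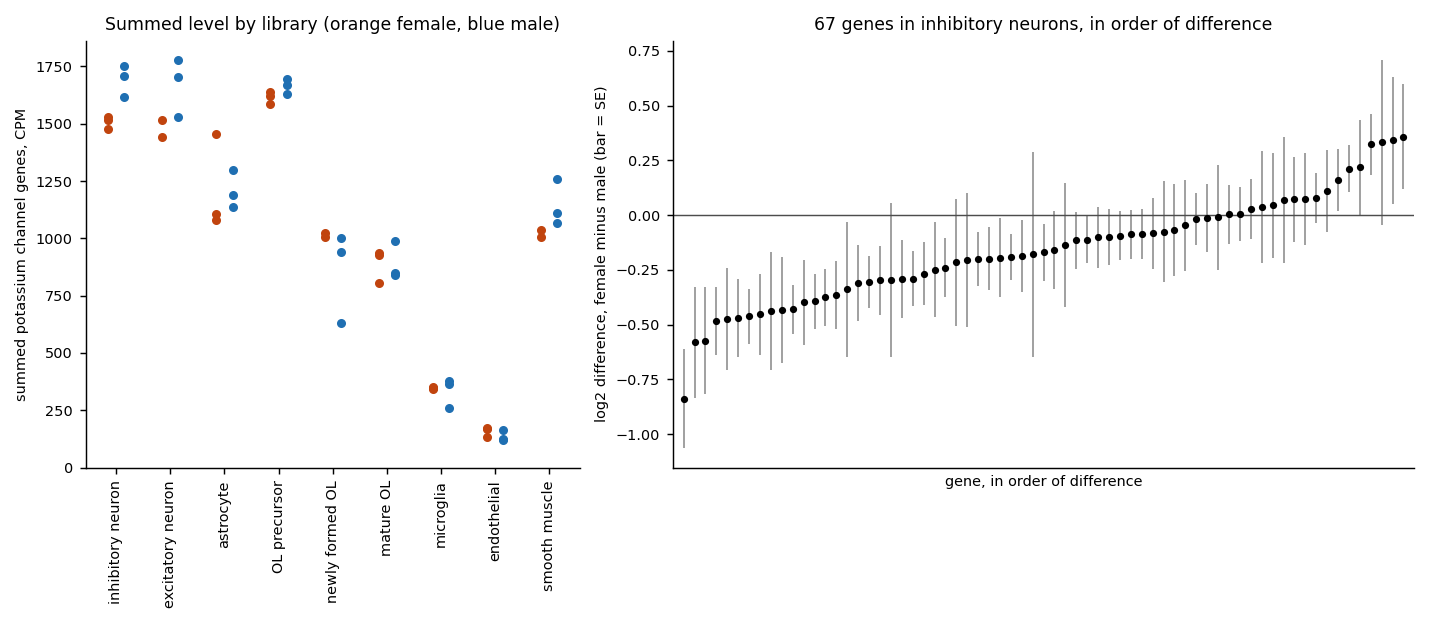
Summed level of the channel members in CPM by library and class (points, female and male coloured apart), and the log2 difference female minus male with SE for 67 channel members in inhibitory neurons. In the second panel 50 of the 67 lie below 0, and no member was called.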

How the data were processed

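The deposited table holds raw UMI counts per gene and cell for all 6 libraries, whose number ends each barcode. Per the submitters' processing notes, the authors used Cell Ranger 2.0.0 and mouse build mm10. Gene annotation, strand of counting and the rule that called cells: not given in the sources used here. Counts were found to be whole numbers. Chemistry reads 3′ ends, so a level reflects captured UMIs and not transcript length.

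Cells with at least 500 genes and at most 20% mitochondrial UMIs were kept. A cell joined a class when it passed the marker minimum of 1 list, and cells of several lists were left out. Scrublet (expected rate 0.06) marked 1113 of the 30824 kept cells (3.61%). Its share was 19.3% in the cells of several lists, which were left out already. Marked cells within a class were kept, and left out as an alternative. Neurons were inhibitory with at least 3 UMIs of Slc32a1, Gad1 and Gad2 and none of Slc17a6 or Slc17a7. The authors' own cell annotation was not used here, so classes were rebuilt and may differ from the study's. UMIs were summed per library and class (at least 10 cells, at least 3 libraries; at least 20 cells per library for sex) and tested by edgeR's quasi-likelihood test with TMM scaling and filterByExpr (minimum count 10), with the library as block for classes and types and none for sex. A standard error is the log2 difference over the square root of the F statistic. Depth was 33000043, 80803910 and 1245003 UMIs in the kept cells of the female libraries and 44982397, 47111566 and 8779199 in the male ones. Intervals are exact Poisson at 95% and cover counting error only, and a count of 0 was given a floor of 3 UMIs. The labels give each library as a pool of 3 mice with its own replicate number within its sex. The fits were tested on simulated data with 200 changed genes: of 2-fold changes 99% were recovered between neuron classes (12282 genes), 88% in Avp neurons (10942) and 86% between the sexes in inhibitory neurons (14270), and false calls were 4.79%, 5.08% and 17.0% of all calls, so calls of the sex fit exceed the nominal rate.

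Members, lists and tests were chosen with earlier results of these data known. Genes were named by a fixed rule: per class up to 5 called higher and 3 called lower, per neuron type up to 4 and 2, per pairwise comparison up to 5 a direction, for sex the 3 smallest p where none was called, and the member with the most UMIs of each subfamily. Kcnj8, Kcnk12, Kcnk6, Kcnj4 and genes of small classes were added after values were seen. Some items that the rule names are not reported here, and for that reason the reference for free neuronal RNA uses 1 gene fewer than its list. Gene positions came from GENCODE (GRCm38), where all 95 members matched by ID, and promoters from RefSeq (GRCm38.p6). Alternatives were DESeq2, no filter, no library block, stricter gates, Scrublet doublets left out, each library left out, the replicate block for sex, and, chosen after seeing the data, cells of several lists resolved and Ppp1r1b cells left out of the comparison group. Tools were Python 3.11.15, scanpy 1.11.5, numpy 2.4.6, scipy 1.17.1, pandas 2.3.3, R 4.3.3, edgeR 4.0.16, limma 3.58.1 and DESeq2 1.42.0.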

Additional observations from a re-analysis of the deposited data

Results flagged for a closer look

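Of 81 sets of values examined for 1 library far from the others, 9 were marked, and chance marks about 1 in 20. Female library 3, with 77 inhibitory neurons, was high in Kcnh8 (15.8 CPM) and Kcnip4 (145 CPM) of inhibitory neurons and low in Kcnmb4 of Lhx6 and Lhx8 neurons (13.9 CPM, 10 cells). Male library 3 was high in Kcne4 of smooth muscle (478 CPM), in Kcnj2 of the Adora2a (45.8 CPM) and Drd1 (31.4 CPM) striatal-like types and in Kcnip1 of Gal neurons (142 CPM). Male library 2 was high in Kcnmb2 of Vip neurons (34.1 CPM), and female library 1 in Kcnj9 of Avp neurons (54.9 CPM).

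The 20 pericytes, which entered no comparison, held Kcnj8 at 1505 CPM and Kcne4 at 588 CPM. UMIs of Kcnj8 were found in the pericytes of all 5 libraries that had any, with 5, 4 and 8 UMIs in 4, 1 and 1 cells of female libraries 1 to 3, 12 in 4 cells of male library 1 and 35 in 10 cells of male library 3.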

How the results depend on the processing

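Of 2045 values of 176 named results on 48 genes under the alternatives, 1885 kept their direction and side of the threshold, 155 were no longer called, 3 became called and 2 reversed. The reversed ones were sex differences that were not called: Kcnq1ot1 in astrocytes without male replicate 2 (0.22, with -0.78 as the lowest value when 1 library was left out) and Kcnj10 in precursors with stricter gates (0.0091). Calls lost were 32 of 176 under DESeq2, 19 of 166 with stricter gates, 14 of 160 without the library block, 6 of 176 without the filter, 11 of 53 with Ppp1r1b cells left out, 2 of 176 with cells of several lists resolved and 0 of 176 without Scrublet doublets. Scrublet marked only 0 to 1.22% of the cells of the tested classes, so that last alternative could change little. With 1 library left out, calls lost were 26 of 168 without female 2, 19 of 176 without female 1, 2 of 111 without female 3, and 11 of 170, 12 of 173 and 1 of 148 without male 1, 2 and 3. Without the filter 61 members were called in excitatory and 69 in inhibitory neurons, 29 in microglia and 27 between the neuron classes. DESeq2 called 27 in microglia and 6 between the neuron classes, where 9 were called without the library block and 8 to 14 when 1 library was left out (8 without male library 1). Its size factors moved the median of all genes from -0.06 to 0.15 in astrocytes, -0.03 to -0.25 in mature oligodendrocytes and -0.24 to -0.60 in microglia.

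In neuron types DESeq2 called 11 members in Pvalb, 7 in Vip, 8 in Nts, 2 in Crh, 7 in Th, 3 in Trh, 3 in Tbr1 and 1 in Tcf7l2 neurons. Without the library block there were 5 in Nts, 3 in Crh, 10 in Th, 5 in Trh, 4 in Tbr1 and 2 in Tcf7l2, and stricter gates gave 13 in Th, 3 in Tbr1 and 2 in Tcf7l2. Leaving out 1 library gave 11 in Vip (without female 2 or male 1), 6 in Trh (without male 1), 5 in Tbr1 (without female 2) and 2 in Tcf7l2 (without female 1 or 2). With cells of several lists resolved 2 were called in Nos1. With the replicate number as a block for sex, 12 of 68 members were called lower in female inhibitory neurons and 0 higher (5.08% and 3.47% of all genes), where the fit without it called 0. Over all kept cells, the pairs of libraries with the same number correlated by 0.358, 0.0893 and 0.267. In inhibitory neurons the values were 0.231, 0.0937 and 0.184. Female 1 and female 3 correlated best with the male library of their own number, but female 2 with male 1 (0.268 and 0.193). These values therefore cannot decide whether the numbers pair the samples, which the labels do not say. Depth limits the 54 members that did not pass the class filter and all members in pericytes, fibroblasts and macrophages. Pericytes could not be fitted against smooth muscle.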
